A study of Arabidopsis thaliana with 4 samples.

Results

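Root transcript levels were compared between 2 Arabidopsis thaliana lines, labelled CEPDL2ox and CEPD2ox, each measured on 1 Affymetrix Arabidopsis Gene 1.0 ST array. These are 2 of the 4 arrays of the study, the others being wild type and a line labelled CEPD1ox. The label of each line names the gene of the CEPD family that it is marked as overexpressing, and no mutation or treatment is given for either. Seedlings of both lines stood at 22 °C under constant light. They were transferred at 7 d onto medium replete in nitrogen, which held NH4Cl and KNO3 at 10 mM each, and roots were harvested at 14 d. The sources used here do not give the promoter behind each transgene, how many independent lines were made or how many plants each array pooled. The pair was chosen because the overexpressed gene of each is seen on its own array. The comparison leaves the wild type aside and asks which root transcripts differ between plants with more CEPDL2 and plants with more CEPD2.

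CEPD1, CEPD2 and the CEPD-like polypeptides are small class III glutaredoxin-like proteins. They are made in the shoot when nitrogen is short, move through the phloem to the root and raise the uptake of nitrate there. CEPH, a type 2C protein phosphatase, is known to act below them on the nitrate transporter NRT2.1, and class III glutaredoxins are known to bind transcription factors of the TGA family.

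Each value is a deposited log2 signal, and a difference is the CEPDL2ox signal minus the CEPD2ox signal on that scale. Of 16548 genes with a row of their own name, 16546 were compared after the 2 overexpressed genes were left out. The mean of the 2 signals was at or above the array median of 5.16 for 7972 genes, on which the account rests, and below it for 8574. With 1 array per line there is no spread between replicates, no test and no p-value, and precision is limited by how few arrays there are. As the only available scale, each difference was set against those of genes with a like signal. The SD of the difference was 0.406 for genes with a mean signal from 3 to 5, 0.272 from 5 to 7, 0.204 from 7 to 9 and 0.194 from 9 to 11. The central 95% of genes lay between -0.51 and 0.59 at signals from 5 to 7, between -0.35 and 0.45 from 7 to 9, and between -0.31 and 0.42 from 9 to 11. In whole roots, fewer cells of a type and less RNA per cell cannot be told apart.

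CEPD2 (AT2G47880) had a log2 signal of 9.22 on the CEPD2ox array, 1.42 on the CEPDL2ox array and 1.32 on the array labelled CEPD1ox. CEPDL2 (AT3G62960) had 5.49 on the CEPDL2ox array, 3.51 on the CEPD2ox array and 3.30 on the array labelled CEPD1ox. The difference between the lines was 7.81 for CEPD2 and 1.98 for CEPDL2, a description only, since the pair was chosen on these genes. The CEPD2 signals outside its own line lay below 2.98, the 25th percentile of the arrays, so background limits the first of these sizes. The signals of different rows are not comparable, so these sizes do not rank the lines by the amount of introduced RNA. The other family members had low signals and differed little between the lines. CEPD1 (AT1G06830) was at 2.19 in CEPD2ox, 2.34 in CEPDL2ox and 3.04 on the array labelled CEPD1ox. AT2G47870 was at 4.52 in CEPD2ox and 4.49 in CEPDL2ox, and AT3G62950 at 2.30 and 2.05.

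At or above the median level, 23 genes were at least 2-fold higher in CEPDL2ox and 8 were at least 2-fold higher in CEPD2ox. These are 0.289% and 0.1% of the 7972 genes, and 0.389% in both directions. At 1.5-fold the numbers were 135 (1.69%) and 84 (1.05%), or 2.75% in all. Below the median, where signals vary more, 73 genes were past 2-fold toward CEPDL2ox (0.851%) and 94 toward CEPD2ox (1.1%), 1.95% of 8574. The excess toward CEPDL2ox depends in part on scaling. Of the genes past 2-fold at or above the median, 74.2% were higher in CEPDL2ox with the values as deposited, 63.0% after shifting the arrays to the same median and 63.3% after quantile normalization. At the limit, AT1G63600 at 1.00 lay just inside and AT5G36130 at 0.995 just outside on one side, and SEC3B at -1.01 and AT1G58320 at -0.98 did so on the other.

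**Figure D1:**
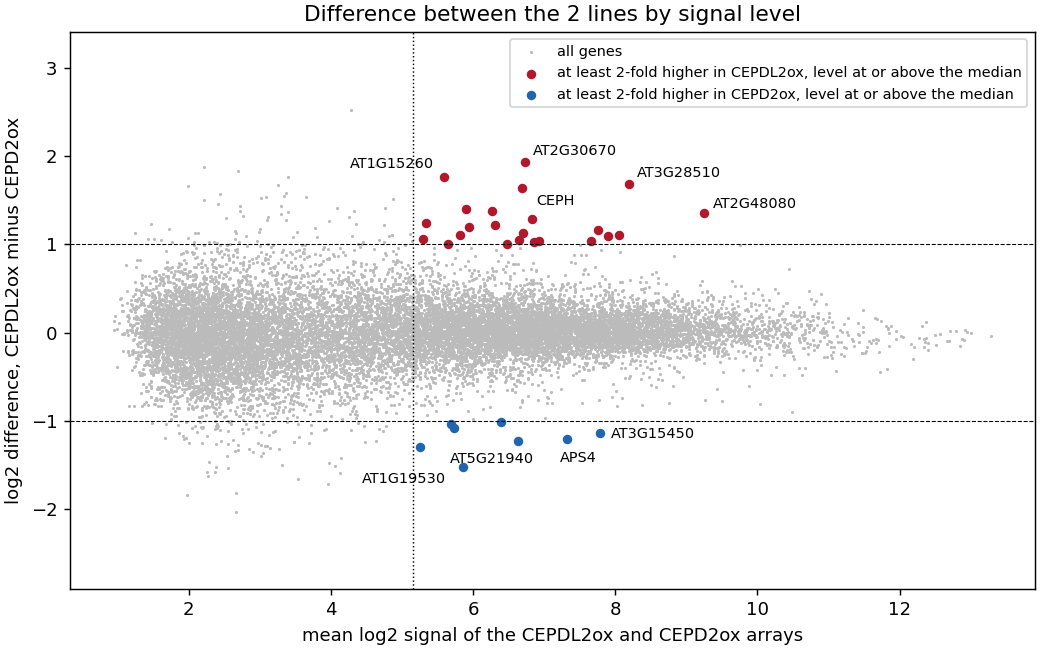
Log2 difference between the CEPDL2ox and CEPD2ox arrays (y axis) against the mean log2 signal of the 2 arrays (x axis) for 16546 genes, 1 grey point each. The dotted line marks the median level of 5.16 and the dashed lines a 2-fold difference. The 23 red and 8 blue genes past 2-fold at or above the median lie outside the band that holds most genes, which narrows from left to right.

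The largest difference at or above the median level was that of AT2G30670, a tropinone reductase-like gene of the short-chain dehydrogenase family. Its log2 signal was 7.70 in CEPDL2ox, 5.77 in CEPD2ox and 5.68 on the array labelled CEPD1ox, so that it was 3.81-fold higher in CEPDL2ox than in CEPD2ox. Its neighbour AT2G30660, a gene of the crotonase family, was at 7.47, 6.18 and 6.17 in the same order, 2.44-fold higher. In both genes the CEPDL2ox array was high and the other line arrays lay within 0.09 of each other. Of 3 tropinone reductase-like genes at or above the median, only AT2G30670 was past 1.5-fold, the others being at -0.09 and -0.02.

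CEPH (AT4G32950) had a signal of 7.51 in CEPDL2ox, 5.87 in CEPD2ox and 5.45 on the array labelled CEPD1ox. It was 3.10-fold higher in CEPDL2ox than in CEPD2ox, a difference of 1.63 where the SD of genes at this level was 0.272, and ranked 4 among the genes higher in CEPDL2ox. Of the 12 clade E type 2C phosphatases looked for, 8 were at or above the median. Apart from CEPH, the members of this clade lay between -0.26 and 0.36, and the median of all 8 was -0.01. The next largest were AT5G27930 at 0.36, AT3G16800 at 0.27 and AT1G16220 at -0.26. The difference between the lines in CEPH was thus not shared by the relatives that could be read.

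AT3G28510, which encodes an ATPase of the AAA type, was at 9.04 in CEPDL2ox, 7.36 in CEPD2ox and 7.68 on the array labelled CEPD1ox. It was 3.20-fold higher in CEPDL2ox than in CEPD2ox and had the largest difference among genes with a mean signal of 7 or above. AT2G48080, a gene of the 2-oxoglutarate and iron dependent oxygenase family, had the highest signals of the 23. It was at 9.92 in CEPDL2ox, 8.57 in CEPD2ox and 9.20 on the array labelled CEPD1ox, a 2.55-fold difference. AT1G52820, of the same oxygenase family, was at 6.60, 5.20 and 6.92 in that order. Here the CEPD2ox array was the low one, and the array labelled CEPD1ox lay above CEPDL2ox. AT1G15260, at 6.46 against 4.71, was 3.38-fold higher in CEPDL2ox, and AT1G11655, at 6.95 against 5.58, was 2.59-fold higher.

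Among signalling and hormone genes, GH3.3, an enzyme that joins auxin to amino acids, was at 8.60 in CEPDL2ox, 7.50 in CEPD2ox and 8.02 on the array labelled CEPD1ox. It was 2.15-fold higher in CEPDL2ox than in CEPD2ox, with the array labelled CEPD1ox between them. AT5G11930, a class III glutaredoxin gene outside the CEPD family, was at 5.83 in CEPDL2ox and 4.77 in CEPD2ox, 2.09-fold higher. AT3G22550, which encodes a zinc finger protein of the FLZ type, was at 6.91 and 5.70, 2.32-fold higher. These 3 genes were past 2-fold, but none of them stood out from the array labelled CEPD1ox by that much on the CEPDL2ox side.

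Enzymes of sugar phosphate metabolism included PGM (AT1G78050), a phosphoglycerate mutase gene, at 8.34 in CEPDL2ox and 7.18 in CEPD2ox. Its relative AT1G22170 was at 8.18 and 7.15. They were 2.24-fold and 2.04-fold higher in CEPDL2ox. They are close in sequence, and whether their probes are shared was not examined. AT5G42510, a dirigent-like gene, was 2.18-fold higher, AT5G49850, a jacalin-related lectin gene, 2.07-fold, AT1G28660, a GDSL lipase gene, 2.04-fold, and AT4G36010, a thaumatin-like gene, 2.03-fold. AT3G22142, a gene of the lipid-transfer protein kind, was 2.01-fold higher. The rest of the 23 were AT4G11390, AT3G46190, AT5G64550, AT4G04745 and AT1G63600, between 2.00-fold and 2.36-fold higher.

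Of the 8 genes at least 2-fold higher in CEPD2ox, AT1G19530 differed most. It was at 6.62 in CEPD2ox, 5.10 in CEPDL2ox and 5.62 on the array labelled CEPD1ox, a 2.87-fold difference. APS4, an ATP sulfurylase gene of the pathway that activates sulfate, was at 7.92 in CEPD2ox, 6.72 in CEPDL2ox and 7.19 on the array labelled CEPD1ox, 2.30-fold higher in CEPD2ox than in CEPDL2ox. Its relative APS3 and the sulfite reductase gene SIR differed by 0.08 and 0.02 and did not follow APS4. Of 8 genes of sulfate activation and reduction looked for, only these 3 had a row of their own, so the rest of the pathway was not read.

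AT3G15450, known as a gene that sugars repress and darkness induces, was at 8.36 in CEPD2ox, 7.22 in CEPDL2ox and 6.94 on the array labelled CEPD1ox. AT5G21940 was at 7.25 in CEPD2ox and 6.02 in CEPDL2ox, which lay 0.02 above the array labelled CEPD1ox. In both the CEPD2ox array was high and the other line arrays were closer to each other, with differences of 2.20-fold and 2.35-fold between CEPD2ox and CEPDL2ox. AT1G22890 was at 5.90 in CEPD2ox and 4.60 in CEPDL2ox, SIS, named for salt induction, at 6.27 and 5.19, AT1G23650 at 6.21 and 5.18, and SEC3B, a subunit of the exocyst that tethers secretory vesicles, at 6.89 and 5.88.

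Just short of 2-fold were 7 further genes higher in CEPD2ox. The peroxidase gene AT5G64120 (PRX71) had the highest signals of these, at 10.9 in CEPD2ox, 10.0 in CEPDL2ox and 9.61 on the array labelled CEPD1ox. Its difference of -0.90 was the lowest among the 782 genes with a mean signal from 9 to 11. AT1G30720, a berberine bridge enzyme-like gene, was at 7.49 in CEPD2ox and 6.53 in CEPDL2ox. LUP5, an oxidosqualene cyclase gene, was at 6.37 and 5.48, and AT1G58320, of the PLAC8 family, at 6.49 and 5.51. The others were AT5G44572, AT5G28295 and AT1G80180, with differences of -0.93, -0.89 and -0.87.

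**Figure D2:**
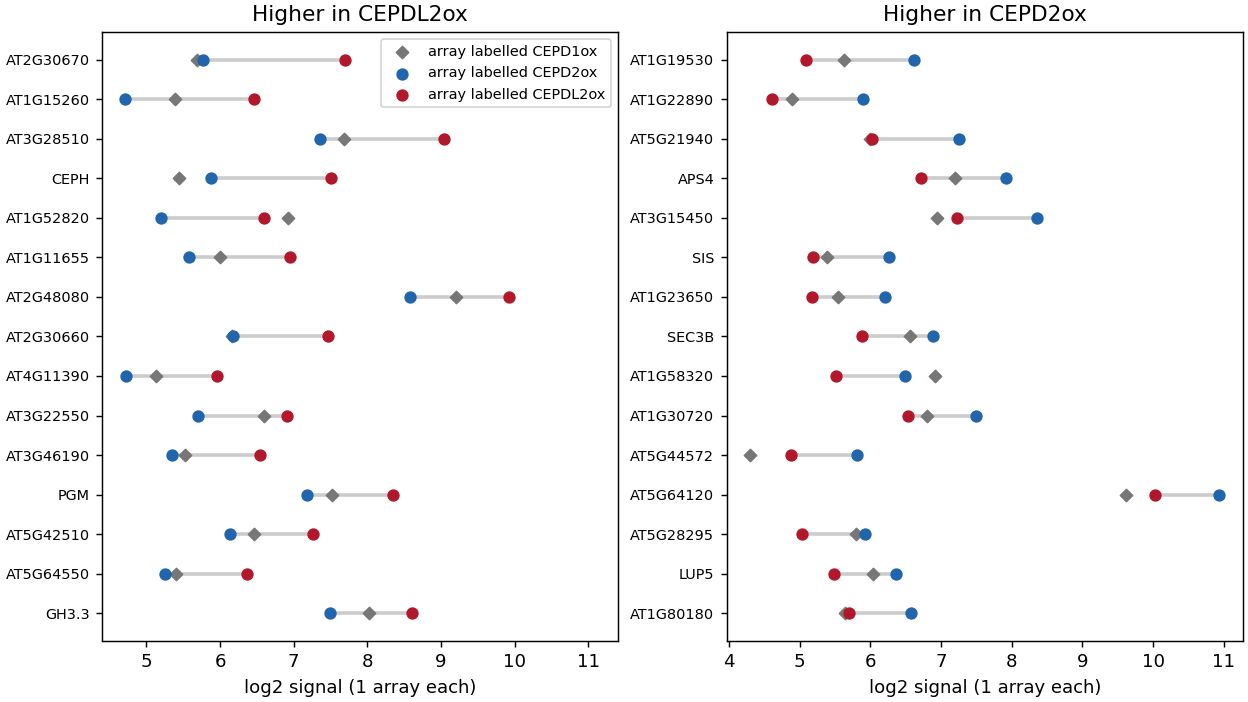
Log2 signal on the CEPDL2ox (red), CEPD2ox (blue) and CEPD1ox (grey) arrays, 1 array each, for the 15 genes with the largest difference toward CEPDL2ox (left) and the 15 toward CEPD2ox (right) at or above the median level. Grey bars join the 2 arrays compared. In most genes on the left the grey diamond lies nearer to the blue point, and in most on the right nearer to the red point.

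The array labelled CEPD1ox took no part in choosing these genes beyond the choice of a row per gene, and is given as a further line array. CEPD1 was highest on it, by 0.85 over CEPD2ox and 0.70 over CEPDL2ox, but at 3.04 its signal stayed near the 25th percentile of 2.98. Of the 23 genes higher in CEPDL2ox, its signal was nearer to CEPD2ox in 19 and nearer to CEPDL2ox in 4. Of the 8 genes higher in CEPD2ox, its signal was nearer to CEPDL2ox in 7 and nearer to CEPD2ox in 1. In 18 of the 23 and 6 of the 8 it lay between the 2 arrays compared. These genes were chosen for a wide gap between those arrays, so a further array can often fall within it. The same counts over all genes are not given here, so these counts only describe where that array lay. CEPDL2ox was at least 2-fold above the array labelled CEPD1ox in 7 of the 23, and CEPD2ox was at least 2-fold above it in 3 of the 8. With the genes of all 3 labels left out, CEPDL2ox against the array labelled CEPD1ox gave 11 genes higher (0.138%) and 5 lower (0.0626%) by 2-fold at or above the median, 0.2% of 7989. The array labelled CEPD1ox against CEPD2ox gave 4 higher (0.0499%) and 8 lower (0.0999%), 0.15% of 8011. These comparisons share arrays with the main one and are given side by side only. At or above the median, CEPDL2ox against CEPD2ox had the most genes past 2-fold of the 3. Below the median the order was the other way. CEPDL2ox against the array labelled CEPD1ox had 50 higher (0.584%) and 124 lower (1.45%), 2.03% of 8556, and the array labelled CEPD1ox against CEPD2ox had 109 higher (1.28%) and 88 lower (1.03%), 2.31% of 8534.

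Auxin genes were read from 8 members at or above the median, among 171 listed and 24 with a row. All 8 had a positive difference, with a median of 0.47 beside 0.02 for all genes, where 54.8% were positive. Past 2-fold was 1 member, GH3.3, and past 1.5-fold were 2, beside 0.389% and 2.75% of all genes in both directions. GH3.1 was at 7.61 in CEPDL2ox and 6.97 in CEPD2ox. WES1, which is GH3.5, was at 8.71 and 8.14. LBD16, which acts when lateral roots are founded, was at 7.01 and 6.52, and YUC6, an enzyme of auxin synthesis, at 6.49 and 6.04. GH3.17, LBD29 and IAA18 were at 0.35, 0.22 and 0.12. Of the 8, 3 lay above the central 95% of genes of like level, where 2.48% of all genes did. On the array labelled CEPD1ox the signals of 6 of the 8 lay between those of CEPD2ox and CEPDL2ox, while those of GH3.17 and LBD29 lay just below CEPD2ox.

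Glutathione S-transferases, which conjugate glutathione in detoxification, had 7 members at or above the median, among 45 listed. All 7 were positive, beside 54.8% of all genes at or above the median, and their median was 0.35. GSTU20 was at 8.68 in CEPDL2ox and 8.05 in CEPD2ox, GSTU22 at 8.10 and 7.63, and GSTU25 at 7.07 and 6.63. GSTU20 and GSTU22 lie close together on chromosome 1, with GSTU21 between them, and whether their probes are shared was not examined. Of the 7, 1 was past 1.5-fold and 0 were past 2-fold, beside 2.75% and 0.389% of all genes. Over all 13 members with a row, low signals included, the median was 0.14. Of 88 genes listed for wall proteins of the extensin and proline-rich kind, only 4 had a row, so most could not be read. All 4 were positive, with a median of 0.48, led by AT5G01280 at 0.71 and AT5G19800 at 0.69. Past 1.5-fold were 2 of the 4 and past 2-fold 0, beside the same 2.75% and 0.389% of all genes. Of 40 root hair genes listed, the 3 that could be read were EXPA18 and EXPA7, expansins of growing hairs, and XTH26, a xyloglucan hydrolase. Their differences were 0.50, 0.24 and 0.47. The summed linear signal of these 3 was 590 in CEPDL2ox, 435 in CEPD2ox and 496 on the array labelled CEPD1ox. For 12 genes of a list meant for root cap and meristem, 8 higher and 4 lower in CEPDL2ox, the sums were 1174, 998 and 1127 in that order. For 4 vascular genes, 2 higher and 2 lower, they were 552, 510 and 554. The list for root cap and meristem was matched by name and also took in the CLE peptide genes CLE25, CLE41 and CLE44. Its sums therefore do not stand for a single tissue. CLE41 and CLE44 are in the vascular list as well, so the sums of these lists share genes. The part of root hair abundance in the wall genes was not tested.

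Class III peroxidases had the most members at or above the median, 42 of 73 listed. Their median difference was 0.07, with 30 positive and 12 negative, and 0 past 2-fold. Beside PRX71, AT1G30870 was at 0.66, AT4G16270 at 0.51 and AT3G49960 at 0.45. Expansins and xyloglucan hydrolases had a median of 0.06 over 15 members, from -0.52 for EXPA25 to 0.50 for EXPA18. UDP-glycosyltransferases had a median of 0.14 over 19, from -0.77 for UGT72B3 to 0.52 for UGT72E1, and of these 12 were positive and 7 negative. With low signals included, over 48 members, the median of the glycosyltransferases was -0.07. Each of these families had members on both sides of 0.

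Jacalin-related lectins named JAL were lower in CEPDL2ox in each of 4 members, with a median of -0.41. JAL22 was at 7.68 in CEPDL2ox and 8.26 in CEPD2ox, JAL34 at 10.5 and 10.9, JAL33 at 5.49 and 5.91 and JAL31 at 6.71 and 6.95. These lectins are known to bind the beta-glucosidase PYK10 of endoplasmic reticulum bodies in roots. Among its kin, BGLU22 was at 9.95 in CEPDL2ox and 10.4 in CEPD2ox, BGLU21 at 10.9 and 11.2, and PYK10 at 12.87 and 12.95. JAL23, at a low signal, was at -0.04. Of these 8 genes, grouped after their values were seen, JAL22, JAL34 and BGLU22 lay below the central 95% of genes of like level, where 2.48% of all genes did. Past 1.5-fold were 0 of the 8, beside 1.05% of all genes in this direction. On the array labelled CEPD1ox the signals of JAL34 and BGLU22 were 10.4 and 9.94, close to CEPDL2ox. AT5G49850, the lectin gene named above, went the other way.

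Berberine bridge enzyme-like genes, oxidases of wall and defence compounds, went in both directions. AT1G30720 and its neighbour AT1G30730 were at -0.96 and -0.65, AT5G44380 was at -0.48 and AT1G30760 at 0.65, while the median of 9 members was -0.05.

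Transcripts of chloroplast proteins, taken as markers of shoot tissue, were lower in CEPDL2ox. Of 8 with a row, among 59 listed, 7 were lower and 1 higher. PSBW, a photosystem subunit, was at 6.15 in CEPDL2ox and 6.81 in CEPD2ox, LHB1B2, a light-harvesting protein, at 5.61 and 6.16, and RCA, the Rubisco activase, at 5.66 and 6.14. The summed linear signal of the 8 was 244 in CEPDL2ox, 339 in CEPD2ox and 222 on the array labelled CEPD1ox, and the lowest log2 signal among them was 2.47. CEPD2ox was thus the high array, as for AT3G15450 and AT5G21940. The part of these markers in the genes higher in CEPD2ox was not tested.

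Nitrogen genes could be read in part only. Of NPF transporters, which carry nitrate and other solutes, 9 were at or above the median, with a median of 0.16, 6 positive and 3 negative, and 0 past 1.5-fold. AT1G59740 was at 0.36, AT1G68570 at 0.34 and AT1G72120 at -0.25, and GTR1, a glucosinolate transporter, at 0.24. The value of AT1G68570 depends on the row taken, since averaging its rows gave 0.00498. Of high-affinity nitrate transport, 1 of 8 listed genes had a row, below the median. Nitrate assimilation, nitrate response regulators, and ammonium and amino acid transport had no member matched to a row with 1 gene name and were not analysed here. Of the class III glutaredoxins outside the CEPD family, 15 of 16 had a row and 14 of these lay below the median. Among the latter AT4G33040 was at 4.47 in CEPDL2ox and 3.58 in CEPD2ox, and AT1G03020 at 2.94 and 3.78. The lower signal of AT1G03020 was below 2.98, the 25th percentile of the arrays, so background limits its size. Over the 15 with a row the median difference was -0.05.

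Among metal genes, bHLH115, a regulator of the iron deficiency response, was at 9.46 in CEPDL2ox and 8.91 in CEPD2ox. Its relatives bHLH34 and ILR3 were at 0.34 and 0.30, and bHLH121 and bHLH104 at -0.20 and -0.09. PYE, another factor of the iron response, was at 0.44. ZIP6, of the zinc and iron transporter family, was at 6.14 and 5.62, and the metallothionein gene MT1C at 10.2 and 9.76. None of these passed 1.5-fold. GID1C and GID1A, receptors of gibberellin, were at -0.40 and -0.33. The Aurora kinase gene AUR2, which acts in cell division, was at 0.61, with AUR1 at 0.34 and AUR3 at 0.14. Of 20 histone genes listed, 3 were at or above the median, with a median of 0.00. Of these, HTB2 was at 0.28 and HON4 at -0.02.

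Among genes used as references, 7 had a median of 0.18, with TUB7 at 0.40, GAPC2 at 0.25, PEX4 at 0.18 and TUB6 at -0.22. Several list medians above, such as those of the peroxidases, expansins and NPF transporters, were of that size or smaller. Of 65 lists, 30 had at least 3 members at or above the median, 13 had 1 or 2 and 22 had none. Of these 22, 15 had no member matched to a row with 1 gene name, and 7 had rows below the median only.

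**Figure D3:**
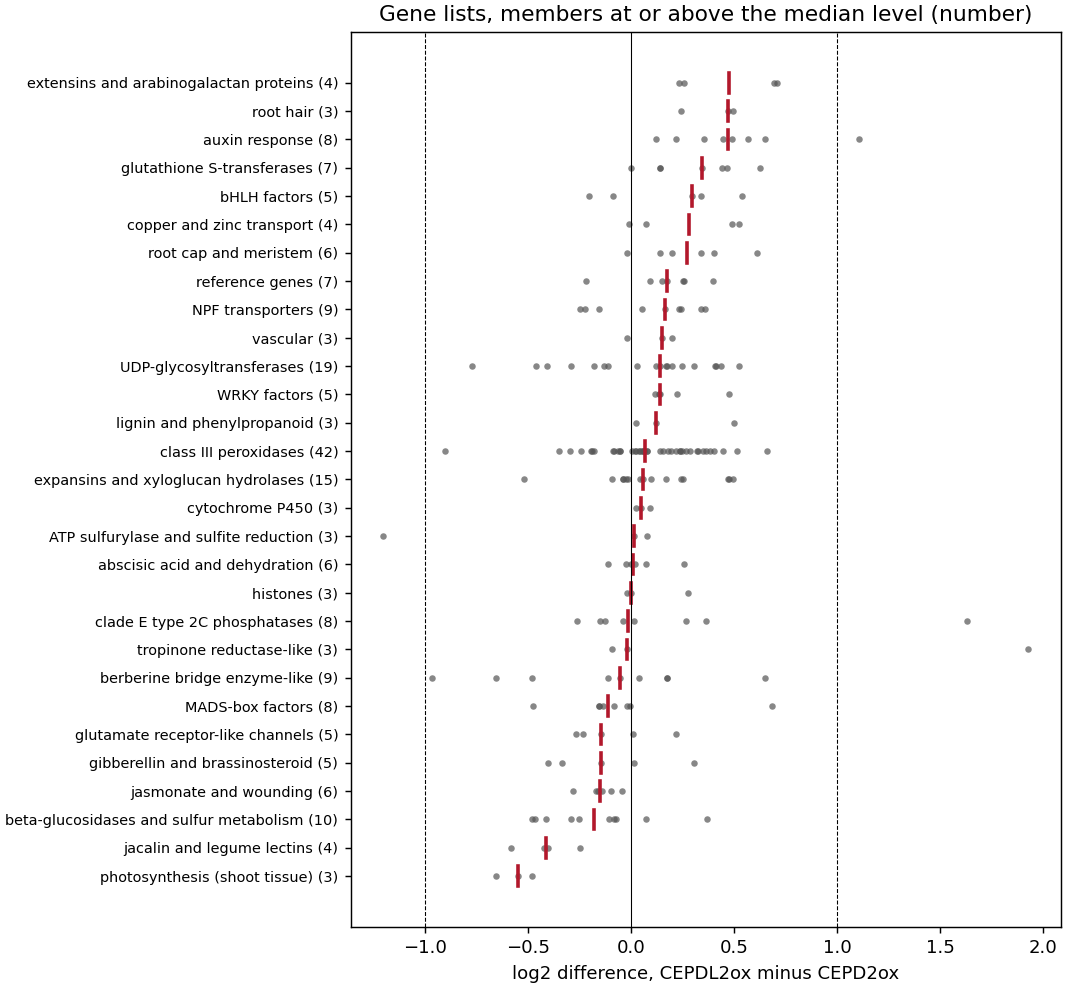
Log2 difference between CEPDL2ox and CEPD2ox for each member (grey points) of the gene lists with at least 3 members at or above the median level, with the median of the list (red bar) and the number of members in parentheses. Class III peroxidases are shown by the list matched by locus, and the list of them matched by name is left out. Dashed lines mark 2-fold. Auxin, root hair and glutathione S-transferase genes lie to the right of 0 and JAL lectins and chloroplast genes to the left, while few members pass 2-fold. The lectin row holds genes named JAL only and leaves out the jacalin-related lectin gene AT5G49850, at 1.05.

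Several of the genes lay next to each other on a chromosome. Of 22 genes at least 2-fold higher in CEPDL2ox with a measured neighbour, 6 had an adjacent protein-coding gene at least 1.5-fold different in the same direction, or 27.3%. The share was 2 of 7 for those higher in CEPD2ox and 5.36% for all 6696 genes at or above the median with a measured neighbour. Whether 1 transcript reaches the probes of the next gene, and whether related neighbours share probes, was not examined. AT2G30660 and AT2G30670 formed 1 such pair on chromosome 2, and each counts among the 6 through the other. AT2G30650 and AT2G30680 beside them were at -0.28 and 0.10. On chromosome 4, AT4G11390 was 2.36-fold higher in CEPDL2ox and the adjacent AT4G11393 was at 5.88 in CEPDL2ox and 3.99 in CEPD2ox, 3.72-fold higher. On chromosome 1, the GDSL lipase genes AT1G28660 and ARAB-1 (AT1G28670) had differences of 1.03 each. On chromosome 5, the lectin genes AT5G49850 and AT5G49870 were at 1.05 and 1.23, with AT5G49860 between them at -0.53 and a low signal. The mean signals of AT4G11393, ARAB-1 and AT5G49870 were 4.93, 4.44 and 4.35, below the median level, where differences vary more.

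On the other side, AT1G19530, AT1G19540 and AT1G19550 followed each other on chromosome 1 with differences of -1.52, -0.87 and -0.52. AT1G19540 encodes an isoflavone reductase-like protein. On chromosome 5, AT5G44572, AT5G44574, AT5G44575, AT5G44582 and AT5G44585 were at -0.93, -0.67, -0.59, -0.70 and -0.82, while AT5G44578 and AT5G44580 among them were at 0.05 and -0.08. AT5G44585, the precursor gene of the secreted defence peptide SCOOP12, had the highest signals there, at 8.78 in CEPD2ox, 7.96 in CEPDL2ox and 8.33 on the array labelled CEPD1ox.

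**Figure D4:**
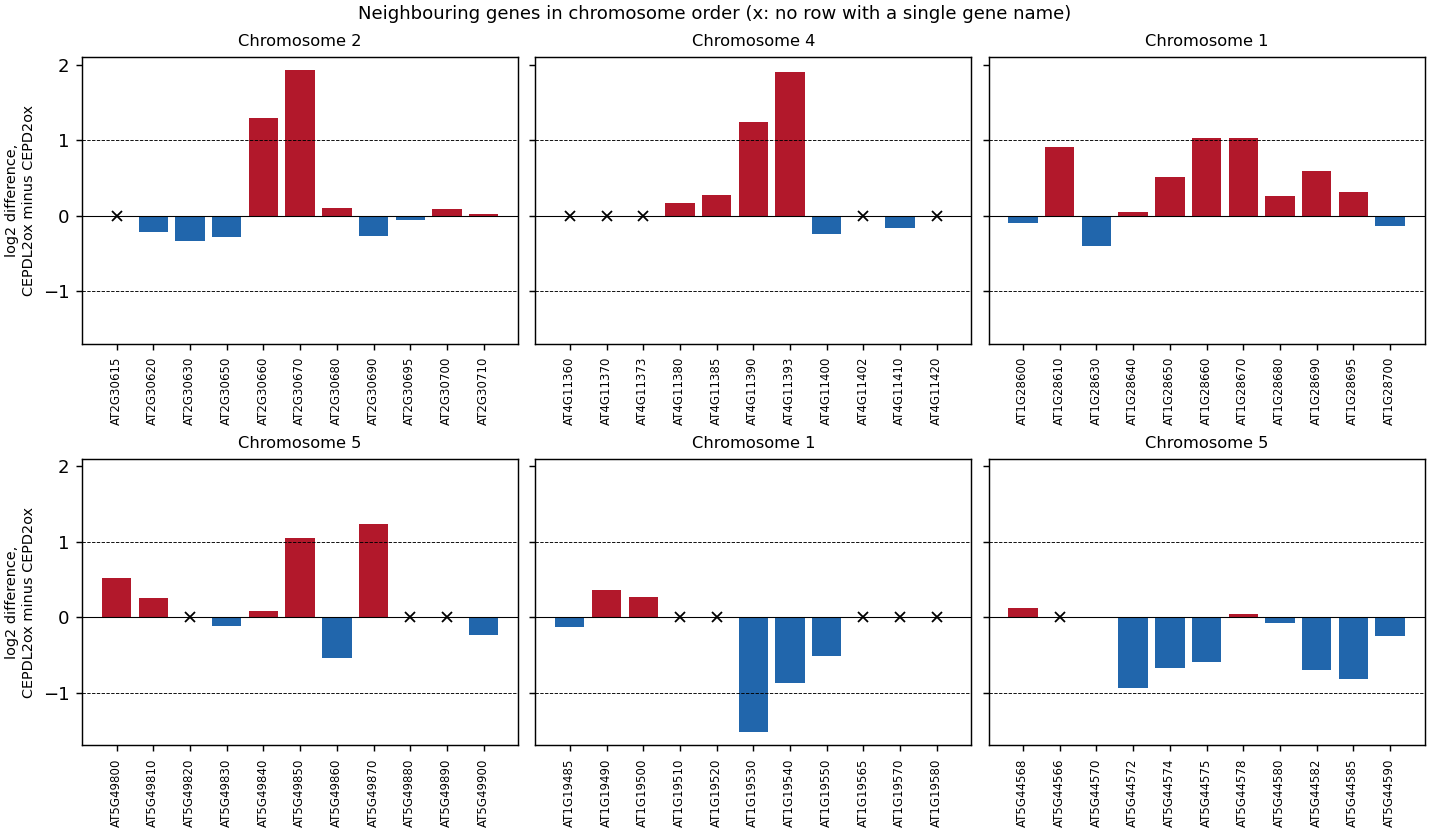
Log2 difference between CEPDL2ox and CEPD2ox (bars, from 0) for protein-coding genes in chromosome order around 6 groups of neighbours. Red bars are higher in CEPDL2ox, blue bars higher in CEPD2ox, dashed lines mark 2-fold and a cross marks a gene with no row of its own name. In each panel adjacent or nearly adjacent genes differ in the same direction, and most genes around them lie closer to 0. Several of the genes shown have signals below the median level, where differences vary more.

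Below the median level the largest differences toward CEPDL2ox were those of the MADS-box genes AGL19, at 5.54 against 3.02, and AGL79, at 5.32 against 3.42. AT4G11393, AT5G52390 and AT2G29820, a kelch repeat F-box gene, followed at 1.90, 1.89 and 1.87. Toward CEPD2ox they were AT2G16535, AT1G19260, AT4G00005, AT1G35625 and AT5G02940, between -2.03 and -1.66. The lower signal of AT2G29820, AT2G16535, AT1G19260, AT4G00005 and AT5G02940 was below 2.98, the 25th percentile of the arrays, so the size of these differences is limited by background. AGL19 at 3.02 in CEPD2ox and AT1G35625 at 3.11 in CEPDL2ox stayed near that percentile, so background may limit their sizes too. Over all 67 MADS-box genes with a row the median difference was -0.01, and of the 8 at or above the median level 7 were negative and 1 positive.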

How the data were processed

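Each array row has 1 log2 signal per sample in the series matrix that the authors deposited. The submitters' processing notes name Affymetrix Expression Console 1.3. How rows were summarized and normalized, and on which genome build, is not given in the sources used here. That signals are on base 2 was inferred from the range of 0.431 to 13.8. The table holds 38408 rows. The platform annotation names 1 gene for 16722, several for 759 and none for 20927. Of the rows with 1 gene, 16670 matched the TAIR10.1 table, which was used for names and gene order only. For 148 genes with several rows, the row with the highest mean over the 4 arrays was taken. Values were used as deposited.

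Samples were grouped by the genotype in the labels, 1 array each, so no test was run. Named genes are the 15 with the largest difference in each direction at or above the median level, the 5 in each direction below it, the CEPD family and CEPH, and up to 4 members per list. The rest of those past 2-fold, further list members and neighbours were added after their values were seen. The members and lists were chosen with earlier results of these data known. Of the lists, 59 were matched by name in the gene table, from which genes that only share a symbol were removed after the values were seen, and 6 by locus, added after the values were seen. The CEPD family and CEPH were named by their known loci. The count was checked on simulated data. Alternatives were the fold, the level floor, the scaling, the mean over a gene's rows and all rows. Computations used Python 3.11.15, numpy 2.4.6, pandas 2.3.3, R 4.3.3 and limma 3.58.1.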

Additional observations from a re-analysis of the deposited data

How the results depend on the processing

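The 2 counts at or above the median, 23 higher and 8 lower in CEPDL2ox, became 135 and 84 at 1.5-fold, 4 and 0 at 3-fold, 96 and 102 with no level floor, 65 and 45 with a floor at the 25th percentile, and 150 and 59 over all rows of the table. Shifting the arrays to the same median gave 17 and 10, quantile normalization 19 and 11, cyclic loess 18 and 9, and all of these held the 8 lower genes and 17, 19 and 18 of the 23 higher ones. Averaging a gene's rows changed neither count. Scaling moved the median difference of genes at or above the median from 0.02 to between -0.03 and -0.01. Among 166 named genes and 4 such settings, the sign changed for 8 genes, each within 0.05 of 0. Averaging rows took AT1G68570 from 0.34 to 0.00498. Of 30 list medians, those of the dehydration, cytochrome P450, UDP-glycosyltransferase and sulfate activation lists changed sign under at least 1 setting, and no other did. No paired analysis was possible because each group has 1 array. With 1 array each, no replicate could be left out, and signals near background limit what a difference below the median can show.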

Other observations

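Rows that the platform annotation gives no gene hold many of the larger differences. At or above the median level, 127 of 10692 such rows were at least 2-fold higher in CEPDL2ox and 51 lower, 1.66% in all, beside 0.389% of the 7972 named genes. Of 451 rows with several genes, 0 were past 2-fold. What these rows measure was not analysed here.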
